A study of Mus musculus with 8 samples.

Results

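The arrays described here are those of the SA tumours at 2 of the 3 times studied, 2 taken at day 38 and 2 at day 20, which makes 4 of the 8 samples in the series. They were chosen by their titles. RNA of whole melanomas was measured on Illumina mouse bead arrays, 1 biotin-labelled sample per array. The C57BL/6 mice had a BrafCA allele and a Tyr::CreER transgene. In such mice 4-hydroxytamoxifen (4-HT) activates a Cre recombinase made under the tyrosinase promoter and so turns on mutant Braf in pigment cells. Newborn mice were painted with 4-HT at 25 to 50 mg/ml on postnatal days 2 to 4, on the right ear, the right flank and the tail, and days are counted from that treatment. The SA mice carried Ifnar1SA, an allele of a type I interferon receptor chain whose product is known to be spared from degradation. The labels' treatment text speaks of Ifnar1-/- mice where the genotype field gives Ifnar1SA, and the genotype field was followed. The remaining samples are 2 SA tumours of day 60 and 2 tumours of day 38 from Ifnar1+/+ mice, called WT, which carry the same Braf and Cre alleles. The labels give neither the mouse of each sample nor the painted site of each tumour. The p-values below therefore reflect only how far apart the sampled arrays lay.

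A melanoma of this kind grows in the dermis of living skin, and the tissue taken with it can hold epidermis, hair follicles, fat, muscle, nerve and immune cells. In the epidermis, keratinocytes divide in the basal layer and move outward while they switch to making keratins, lipids and the cornified envelope, a sheet of cross-linked proteins such as loricrin and the late cornified envelope (Lce) family. The type I interferon receptor signals through STAT factors to interferon-stimulated genes. The comparison of day 38 with day 20 asks how SA tumours changed over the earlier part of their growth.

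Values are log2 intensities after background correction, and 11661 measurements passed a filter on low signal, 10771 of them with a gene name. The day 20 tumours had a correlation across genes of 0.944, with 1145 genes (9.82%) over 2-fold apart, whereas the pair of day 38 arrays had a correlation of 0.971 and 591 such genes. Between a day 38 and a day 20 array there were 797 to 1301, so the day 20 tumours differed from each other by about as many genes as from the day 38 tumours. Melanocyte markers were part of this split. Dct, an enzyme of melanin synthesis, read 14.63 and 14.85 in the SA day 38 tumours, against 10.83 and 16.08 in the SA day 20 tumours, and Tyrp1 read 12.06 and 12.70 at day 38, against 9.51 and 13.96 at day 20. For both genes the day 38 tumours lay between the day 20 tumours. Tyr, Pmel and Mlana were likewise lowest in day 20 array 1 among these 4 tumours. Dct, Tyrp1, Pmel and Mlana thus had signal in all 4 samples, with less in that one. Tyr read 6.89 there, under the cut of 7.24 that the filter sets on the mean of a probe, so it was near the background. Mitf, a factor of the same lineage, was not lowest there. It read 8.14 in day 20 array 1 and 9.04 in array 2, against 7.60 and 7.92 at day 38.

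The tumours also differed by sex. Eif2s3y, a translation factor gene on the Y chromosome, read 6.11 and 6.20 in the SA day 38 tumours and 11.55 and 11.37 in the SA day 20 tumours. Xist, a noncoding RNA made from the inactive X of females, read 9.69 and 9.20 at day 38 and 7.11 and 7.30 at day 20. The Y-linked Kdm5d and Uty were lower, and the X-linked Eif2s3x and Kdm6a higher, in both day 38 tumours. The SA day 38 pair thus had a female pattern and the day 20 pair a male one, and sex cannot be told apart from day in anything that follows.

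Homeobox (Hox) genes, which keep a record of position along the body, separated the day 20 tumours as well. They were looked at after the day 20 arrays had been seen to differ. Of 38 Hox genes on the array 23 passed the filter, and 11 of them were over 2-fold higher in day 20 array 1 than in array 2, with 0 the other way round. Hoxc6 read 12.70 and 12.90 in the SA day 38 tumours, against 12.74 and 8.24 in the SA day 20 tumours. Hoxc9 read 10.25 and 10.31 at day 38, against 10.97 and 6.26 at day 20. SA day 60 tumours read 6.40 and 8.66 for Hoxc6, and WT day 38 tumours 12.23 and 12.02. Day 20 array 2 was low together with day 60, and array 1 high together with both day 38 groups. Hoxa5, Hoxa7, Hoxb2, Hoxb4, Hoxb5, Hoxb6 and Hoxb7 showed the same order. The part that the body site may have in the differences below was not tested.

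**Figure D1:**
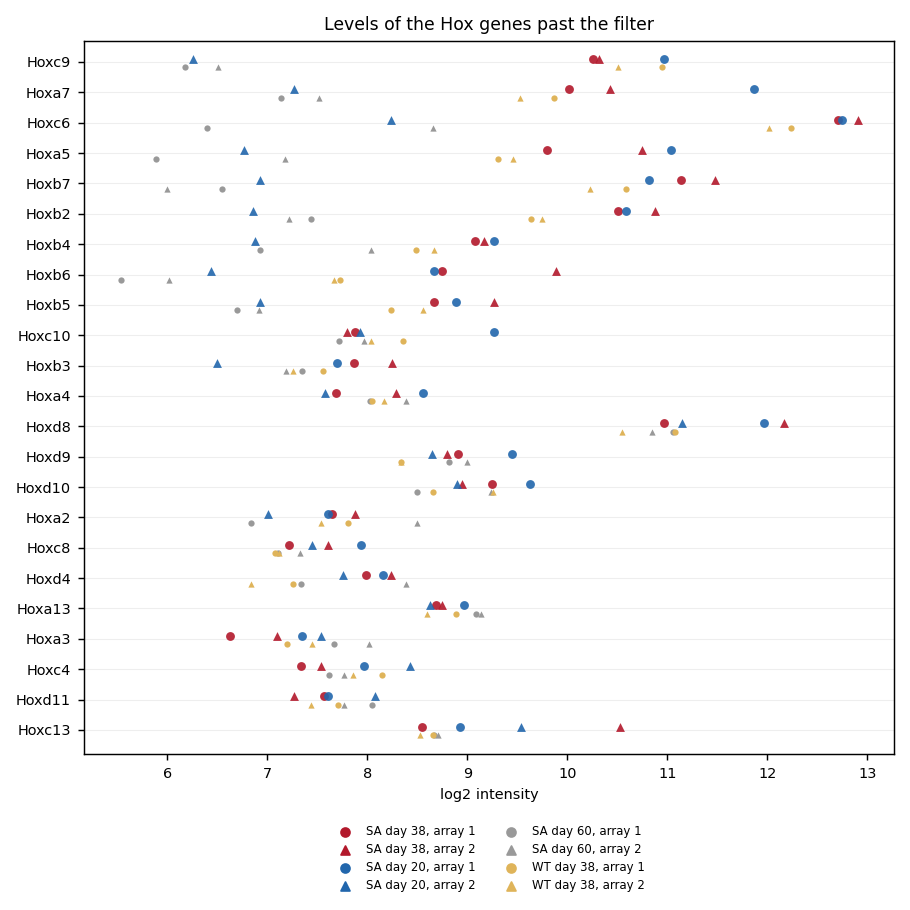
Log2 intensity (x axis) of the 23 Hox genes past the filter, 1 row per gene, in order of the difference between the day 20 arrays. Large symbols are SA day 38 (red) and SA day 20 (blue) and small ones SA day 60 (grey) and WT day 38 (yellow), with circles for array 1 and triangles for array 2; in the upper rows day 20 array 2 lies with day 60 and day 20 array 1 with day 38.

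Among named genes outside the Hox family, the widest gaps between the day 20 tumours were in Adh7, an alcohol dehydrogenase of epithelia, and Fcer1g, the signalling chain of Fc receptors. Adh7 read 12.81 and 12.65 in the SA day 38 tumours, against 14.30 and 6.36 in the SA day 20 tumours. Fcer1g read 12.93 and 6.70 at day 38, against 14.50 and 7.33 at day 20, so it split both pairs. Pon1, Trim30a, Cyp2e1 and the class II gene H2-Eb1 were also far higher in day 20 array 1. In the other direction, Prl2c3, a member of the prolactin family, read 6.79 and 6.71 at day 38, against 6.28 and 12.66 at day 20. Otx1, a homeobox gene of head development, read 6.96 and 6.84 at day 38, against 7.12 and 12.83 at day 20, and Nmu and Prl2c4 were likewise high only in day 20 array 2 among these 4 tumours. Otx1 and Nmu were lower in both day 38 tumours than in either day 20 tumour, and the other genes of this paragraph were not on 1 side of both.

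Because of this spread, a gene was followed where both SA day 38 tumours lay on the same side of both SA day 20 tumours, and singled out where the nearest arrays of the 2 days were at least 2-fold apart. Among all measurements, 2181 (18.7%) were higher and 2261 (19.4%) lower in both day 38 tumours, and these shares are the background for every count below. The stricter 2-fold gap was met by 105 measurements (0.9%), of which 26 (0.223%) were higher and 79 (0.677%) lower at day 38. Among them, 25 of the higher and 69 of the lower had a gene name. In the limma fit across all genes with Benjamini-Hochberg adjustment, 2 of 11661 measurements (0.0172%) passed, both lower at day 38, and 0 (0%) passed as higher. At an unadjusted p under 0.05 there were 1249 (10.7%), 556 of them higher and 693 lower. Those that passed were Eif2s3y, with a fall of −5.31 (SE 0.15, adjusted p = 0.000111), and an unnamed probe, with a fall of −4.23 (SE 0.28, adjusted p = 0.0161). That probe read 8.98 and 8.51 at day 38 and 13.25 and 12.71 at day 20. It followed the Y-linked genes in all 8 samples. When each day 20 tumour was used alone, limma called 39 measurements (0.334%) against array 1 and 46 (0.394%) against array 2, and 8 (0.0686%) in both with the same sign. These 8 were all lower at day 38: Eif2s3y, Defb8, Serpinb12, Serpina12, Lce1l, Lce1b and 2 unnamed probes. Both of these fits share the day 38 tumours.

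**Figure D2:**
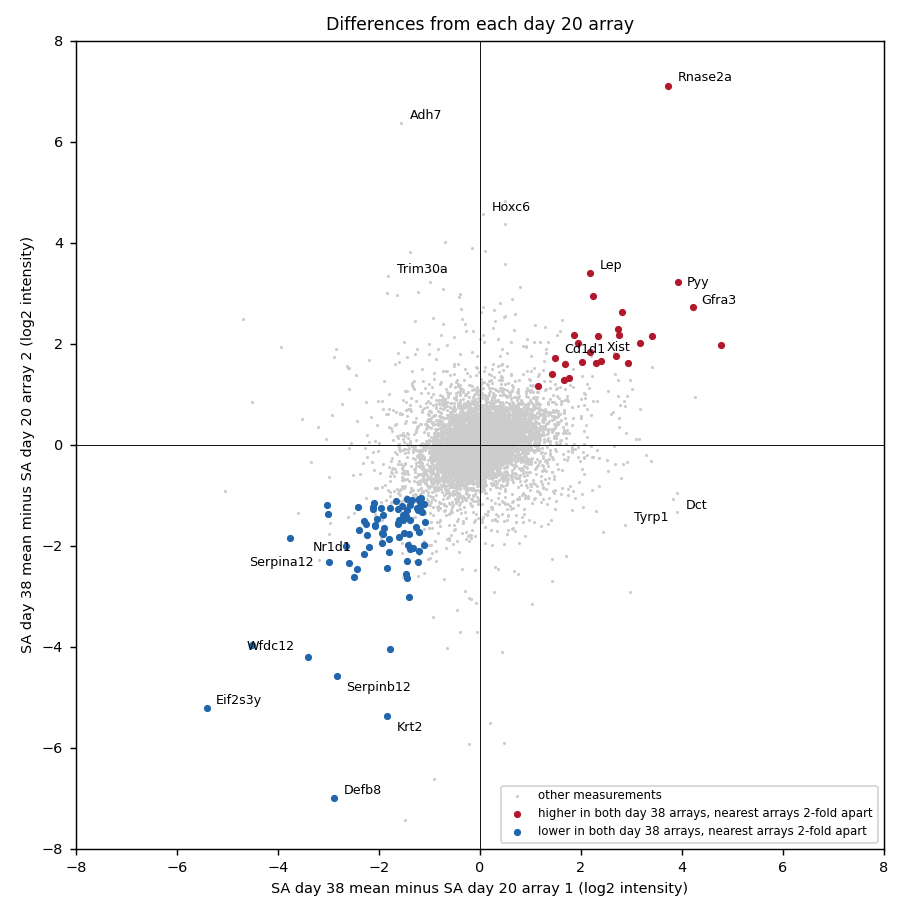
Mean log2 intensity of the SA day 38 tumours minus SA day 20 array 1 (x axis) and minus SA day 20 array 2 (y axis), 1 point per measurement. Coloured points are the 26 higher (red) and 79 lower (blue) whose nearest arrays are at least 2-fold apart; Adh7, Hoxc6, Trim30a, Dct and Tyrp1 lie off the diagonal because the day 20 arrays differ.

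Genes of the outer epidermis had lower values at day 38. Of the 79 measurements at least 2-fold lower, 16 belonged to a list of cornified envelope or barrier genes, and 0 of the 26 higher ones did. Of 47 cornified envelope and suprabasal genes on the array 44 passed the filter, and 34 of these were lower in both day 38 tumours while 1 was higher. The median difference of the 44 was −0.93, against 0.00855 over all 11661, and it was −0.80 against day 20 array 1 and −1.12 against array 2. None passed limma's test singly, and 22 of the 44 were lower at an unadjusted p under 0.05. In bulk tissue, fewer keratinocytes and less of a transcript per keratinocyte cannot be told apart. The basal keratinocyte markers Krt5 (13.34 and 12.88 at day 38, against 13.68 and 13.61 at day 20) and Krt15 were also lower in both day 38 tumours, but over the 15 basal genes the median difference was −0.25, with 6 lower and 1 higher in both tumours. Krt14 and Krt10 sat near the top of the scale in all 4 tumours, where a difference can hardly be seen.

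Of the Lce1 genes, which lie side by side on mouse chromosome 3, 10 passed the filter. All 10 were lower in both day 38 tumours, 8 of them with the nearest arrays at least 2-fold apart. Lce1b read 14.10 and 14.11 in the SA day 38 tumours, against 15.70 and 15.60 in the SA day 20 tumours. Lce1l read 10.72 and 10.61 at day 38, against 13.31 and 12.67 at day 20. Lce1d read 13.32 and 13.33 at day 38, against 14.92 and 15.16 at day 20. In these 3 the days lay further apart than the replicates. The differences were −1.54 (SE 0.13) for Lce1b, −2.33 (SE 0.23) for Lce1l and −1.72 (SE 0.17) for Lce1d, each with a limma adjusted p of 0.0544, which misses the threshold of 0.05. Lce1i (10.10 and 10.54 at day 38, against 12.16 and 12.77 at day 20) and Lce1a2 (13.12 and 12.84, against 15.06 and 14.59) were also lower. In Lce1g (8.21 and 8.60, against 9.86 and 10.96) and Lce1f (12.39 and 12.62, against 13.71 and 14.61) the day 20 tumours themselves lay far apart. The family's members resemble each other in sequence, so a probe may also read a neighbour, and the Lce1 values are not independent of each other. At day 60 the SA tumours read 14.92 and 15.01 for Lce1b and 12.35 and 12.10 for Lce1l, between the other 2 days. The lists as a whole did not show this. The median of day 60 minus day 38 was 0.038 over the 44 cornified envelope and suprabasal genes. For the 30 genes of barrier lipids and proteases it was −0.034. WT day 38 tumours read 13.94 and 13.93 for Lce1b and 10.37 and 10.50 for Lce1l, close to the SA tumours of day 38.

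**Figure D3:**
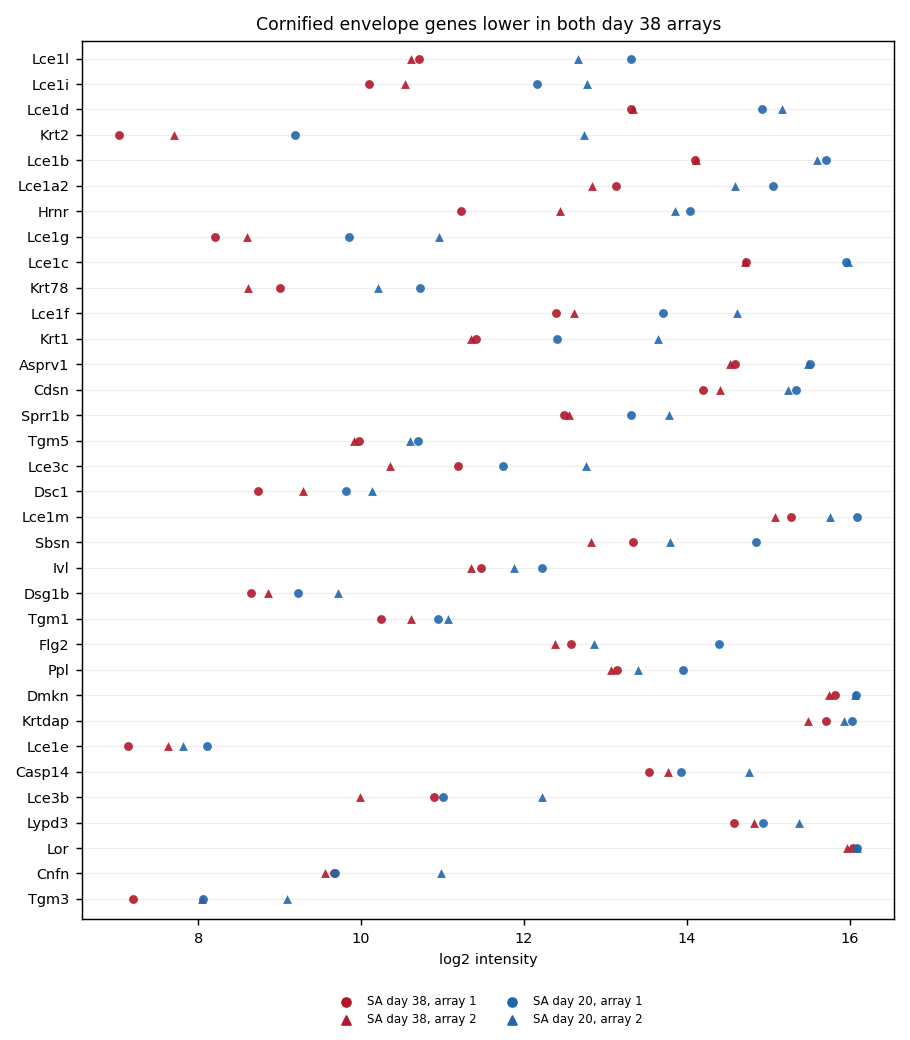
Log2 intensity (x axis) in each SA day 38 (red) and SA day 20 (blue) tumour for the 34 cornified envelope genes that were lower in both day 38 tumours, in order of the gap between the nearest arrays. Circles are array 1 and triangles array 2; in the upper rows the days are apart, though the day 20 replicates of Krt2, Lce1g and Lce1f also differ, and near the bottom, as for Lor and Cnfn, the nearest arrays almost touch.

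The start regions of 3 of these genes are shown because the family moved together. Each window runs from 250 bases before to 50 after the gene start in RefSeq (GRCm38.p6), printed on the gene's strand with the letters ATAAAA in capitals. Windows were found for 11 of the 12 Lce1 genes listed. Matches on either strand were counted throughout. In 10 of the 11 windows, Lce1a1 excepted, ATAAAA began 29 or 28 bases before the start. The same letters began 20 to 40 bases before the start in 817 of 32851 windows of all genes (2.49%), and stood anywhere in 18.5%. In Lce1d they overlap the motif TATAAA, which begins 1 base earlier. The Lce1b window is chr3:92656877-92657176, minus strand, that of Lce1d is chr3:92687161-92687460, minus strand, and that of Lce1l is chr3:92851237-92851536, minus strand. A match is a description of the letters and not a measured site. The windows of related genes are not independent, and those of Lce1b and Lce1d share a long run of letters just before the match. The 10 windows are therefore not separate matches to set against the share over all windows.
Lce1b: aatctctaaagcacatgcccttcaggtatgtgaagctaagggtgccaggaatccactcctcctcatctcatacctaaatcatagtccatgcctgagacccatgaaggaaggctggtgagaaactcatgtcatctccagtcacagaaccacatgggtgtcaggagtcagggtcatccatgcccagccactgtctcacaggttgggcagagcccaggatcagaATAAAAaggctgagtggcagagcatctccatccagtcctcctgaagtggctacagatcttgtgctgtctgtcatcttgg
Lce1d: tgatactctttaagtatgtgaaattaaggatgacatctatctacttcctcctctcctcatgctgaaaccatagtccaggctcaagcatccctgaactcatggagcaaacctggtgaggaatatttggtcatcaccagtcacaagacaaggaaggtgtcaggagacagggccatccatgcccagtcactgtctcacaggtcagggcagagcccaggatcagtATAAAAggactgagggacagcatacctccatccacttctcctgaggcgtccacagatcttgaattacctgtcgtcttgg
Lce1l: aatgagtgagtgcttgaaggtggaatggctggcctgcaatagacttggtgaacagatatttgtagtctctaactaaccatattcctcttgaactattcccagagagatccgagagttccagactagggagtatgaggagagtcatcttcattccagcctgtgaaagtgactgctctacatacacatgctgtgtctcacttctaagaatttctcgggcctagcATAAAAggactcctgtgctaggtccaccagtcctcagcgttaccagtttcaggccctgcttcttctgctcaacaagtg

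Enzymes and inhibitors that build and guard the epidermal barrier also had lower values. Of 30 measured genes for barrier lipids and proteases, 21 were lower and 0 higher in both day 38 tumours, 5 of them by at least 2-fold between the nearest arrays, with a median difference of −0.58. None passed singly and 19 were lower at an unadjusted p under 0.05. Serpina12, the protease inhibitor vaspin, read 11.28 and 11.12 in the SA day 38 tumours, against 14.19 and 13.53 in the SA day 20 tumours, a difference of −2.66 (SE 0.25, adjusted p = 0.0544). Its second probe past the filter differed by −2.30. Serpinb12, a clade B serpin of epithelia, read 9.34 and 9.01 at day 38, against 11.99 and 13.76 at day 20 (−3.71, SE 0.54, adjusted p = 0.0967). Both day 38 values of each serpin were far below the lower day 20 value. Aloxe3 and Alox12b, lipoxygenases that act in turn on the ceramides of the lipid barrier, differed by −1.85 (adjusted p = 0.0566) and −1.42 (adjusted p = 0.0702). Klk5, a protease that sheds dead surface cells, differed by −1.38 (adjusted p = 0.0967).

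Other genes far below both day 20 tumours included secreted defence and epithelial genes. Wfdc12, a small protease inhibitor, read 8.64 and 9.45 in the SA day 38 tumours, against 12.45 and 13.26 in the SA day 20 tumours. Defb8, a beta-defensin, read 6.76 and 6.15 at day 38, against 9.33 and 13.44 at day 20, and its difference of −4.94 had an SE of 1.16 (adjusted p = 0.252). Defb8 was low at day 60 as well, at 5.80 and 5.66. Krt2, a keratin of the upper epidermis, read 7.03 and 7.70 at day 38, against 9.19 and 12.74 at day 20. For Defb8 and Krt2 the direction held against both day 20 tumours, but the size hung on which of them was used. Wfdc12 differed by −3.41 against day 20 array 1 and −4.21 against array 2. Clec4d, a C-type lectin of myeloid cells, read 7.64 and 7.96 at day 38, against 9.60 and 9.66 at day 20 (−1.83, SE 0.23, adjusted p = 0.0762). Serpinb6c, Sdr16c5, Acoxl, Ly6m and Arpp21 were also among the 15 named genes furthest below.

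**Figure D4:**
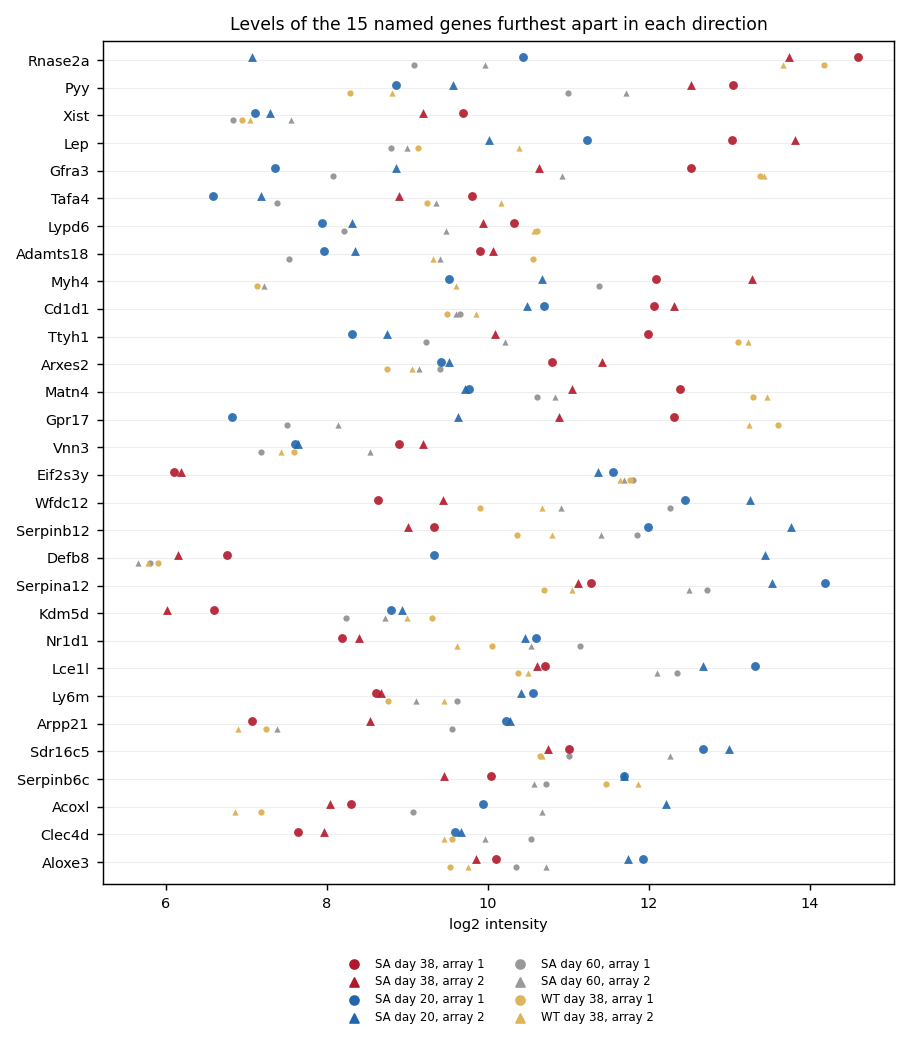
Log2 intensity (x axis) of the 15 named genes with the widest gap between nearest arrays in each direction, higher at day 38 in the upper 15 rows and lower in the lower 15. Large symbols are SA day 38 (red) and SA day 20 (blue) and small ones SA day 60 (grey) and WT day 38 (yellow), with circles for array 1 and triangles for array 2; red and blue never overlap in a row, while the day 60 and WT symbols fall on either side.

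Nr1d1, a nuclear receptor that represses other clock genes, was among the genes furthest apart. It read 8.19 and 8.40 in the SA day 38 tumours, against 10.60 and 10.46 in the SA day 20 tumours, so that day 20 was 4.71-fold higher (difference −2.24, SE 0.25, adjusted p = 0.062). A second probe gave −2.59. Ciart, another repressor of the clock, read 8.80 and 8.92 at day 38, against 10.14 and 9.84 at day 20 (−1.13, SE 0.17, adjusted p = 0.0967). Dbp, a clock output factor, read 11.42 and 11.30 at day 38, against 13.88 and 11.96 at day 20. Nfil3, which binds the same DNA element as Dbp and represses from it, went the other way, with 12.26 and 12.72 at day 38, against 11.24 and 11.80 at day 20. Of 15 measured clock genes, 6 were lower and 2 higher in both day 38 tumours and the median difference was −0.21. SA day 60 tumours read 11.15 and 10.54 for Nr1d1, and WT day 38 tumours 10.05 and 9.62, so the SA pair of day 38 was the lowest of the 4 groups.

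The start region of Ciart is shown because CACGTG, the E-box that the clock's activators are known to bind, occurs in it 3 times, beginning 116, 58 and 44 bases before the gene start (in capitals). Of all windows, 7.15% held at least 1 CACGTG, which reads the same on both strands, and 2 of the 8 clock genes with a window did. The window for Nr1d1 held none, which says nothing of sites outside it. This window is chr3:95882179-95882478, minus strand, in GRCm38.p6.
Ciart: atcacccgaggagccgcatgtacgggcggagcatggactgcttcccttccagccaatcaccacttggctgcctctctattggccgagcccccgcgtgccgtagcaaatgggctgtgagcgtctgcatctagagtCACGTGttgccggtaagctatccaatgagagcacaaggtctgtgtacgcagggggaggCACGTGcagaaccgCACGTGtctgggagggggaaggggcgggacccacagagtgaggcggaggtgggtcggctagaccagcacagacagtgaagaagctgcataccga

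Cell division genes had higher means at day 38. All 26 measured genes of DNA replication had a higher mean at day 38, with 21 higher and 0 lower in both day 38 tumours, and their median difference was 0.56. It was 0.70 against day 20 array 1 and 0.44 against array 2. None reached the 2-fold gap or passed limma's test, and 12 of the 26 were higher at an unadjusted p under 0.05. Mcm3, a subunit of the replicative helicase, read 9.15 and 9.31 in the SA day 38 tumours, against 8.52 and 8.56 in the SA day 20 tumours. Mcm4, of the same helicase, read 13.70 and 14.02 at day 38, against 13.05 and 13.33 at day 20. Cdc6, which loads the helicase, read 9.02 and 9.55 at day 38, against 8.48 and 8.61 at day 20. Of the probes for Mcm6, a fainter one past the filter differed by −1.43 where the one used differed by 0.73.

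For mitosis genes the 2 day 20 tumours gave different sizes. All 24 had a higher mean at day 38 and 14 were higher in both day 38 tumours, with a median difference of 0.63, but this was 1.01 against day 20 array 1 and 0.22 against array 2. Cdca8, part of the chromosomal passenger complex, read 9.16 and 9.60 at day 38, against 8.46 and 8.79 at day 20. Prc1, which bundles the spindle midzone, read 13.53 and 13.63 at day 38, against 12.51 and 13.21 at day 20. Of 13 genes of DNA repair and damage signalling, 13 had a higher mean and 8 were higher in both tumours. Rad54l, a motor of homologous recombination, read 9.94 and 10.14 at day 38, against 8.85 and 9.33 at day 20. The checkpoint kinase gene Chek2 differed by 0.93, while a second probe past the filter differed by −0.02. Skp2, which marks CDK inhibitors for destruction, read 9.48 and 9.70 at day 38, against 8.62 and 8.76 at day 20. Its list of 18 G1 cyclin, E2F and Rb genes had 4 higher (22.2%) and 0 lower in both day 38 tumours. That is near the 18.7% of all measurements that were higher, and the median difference of the list was 0.20. Lmnb1, a nuclear lamin whose loss marks senescent cells, read 10.99 and 11.03 at day 38, against 10.16 and 10.29 at day 20. The 13 CDK inhibitors and senescence regulators as a whole had 3 higher and 2 lower in both tumours, and 21 p53 targets had 1 higher and 7 lower. None of these genes passed the test.

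Of 27 measured genes for secreted factors of senescence and inflammation, 10 were lower and 4 higher in both day 38 tumours, with a median difference of −0.28. Mmp3, a stromelysin that cuts matrix, read 11.61 and 10.73 in the SA day 38 tumours, against 13.41 and 12.96 in the SA day 20 tumours (−2.01, SE 0.57, adjusted p = 0.311), and its 2 other probes differed by −2.03 and −1.85. The neutrophil chemokine gene Cxcl2 read 7.31 and 7.32 at day 38, against 8.77 and 8.73 at day 20. Mmp13, Mmp10, Il1b, Il1a and Serpinb2 were lower in both day 38 tumours as well. A faint probe for Mmp13 past the filter went the other way, by 0.69, where the one used differed by −1.11. Vegfa, a growth factor for blood vessels, was the opposite, with 12.32 and 11.75 at day 38, against 11.00 and 11.33 at day 20. Among 15 genes of neutrophils, which Cxcl2 attracts, 3 were higher and 2 lower in both tumours.

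At the other end, 15 named genes were led by Rnase2a, Pyy, Xist and Lep. Rnase2a, a ribonuclease of the eosinophil-associated family, read 14.60 and 13.74 in the SA day 38 tumours, against 10.44 and 7.07 in the SA day 20 tumours (5.42, SE 1.01, adjusted p = 0.17). WT day 38 tumours read 14.17 and 13.67, and SA day 60 tumours 9.08 and 9.96, so both groups of day 38 were high. Pyy, the gut hormone peptide YY, read 13.05 and 12.53 at day 38, against 8.86 and 9.57 at day 20, an 11.9-fold difference (3.58, SE 0.37, adjusted p = 0.0544). It was lower in WT day 38 tumours, at 8.29 and 8.81, than in any SA tumour. Cd1d1, an antigen-presenting molecule for lipids seen by natural killer T cells, read 12.07 and 12.31 at day 38, against 10.70 and 10.48 at day 20 (1.60, SE 0.18, adjusted p = 0.0631). Here the day 38 tumours lay close together and above all other 6 samples. Arxes2, Plxnb3, Alas2 and Usp11, which also lie on the X chromosome, were among the 25 named genes higher by at least 2-fold. They did not all follow Xist across the groups. Arxes2 was highest in the SA day 38 tumours. Plxnb3 read 10.23 and 9.19 there, against 11.10 and 11.18 in WT day 38 tumours, where Eif2s3y read 11.76 and 11.64. Alas2 was highest in SA day 60 array 1, at 10.81. Usp11 read 7.66 and 7.84 in WT day 38 tumours, against 8.10 and 7.92 in SA day 38 tumours.

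Several of the other leading genes are known from nerve and glia. Gfra3, a receptor chain for the nerve factor artemin, read 12.52 and 10.63 in the SA day 38 tumours, against 7.36 and 8.86 in the SA day 20 tumours (3.47, SE 1.04, adjusted p = 0.342). Gpr17, a receptor of the oligodendrocyte lineage, read 12.32 and 10.89 at day 38, against 6.82 and 9.63 at day 20. Ttyh1, a membrane channel protein of neural cells, read 11.99 and 10.10 at day 38, against 8.31 and 8.74 at day 20. In all 3, array 1 was the higher of the day 38 tumours, the groups did not overlap, and WT day 38 tumours read higher than either, for instance 13.38 and 13.43 for Gfra3. A fainter probe for Ttyh1 past the filter differed by 0.55 where the one used differed by 2.51, and its nearest arrays lay 0.061 apart. Ngfr, the low-affinity nerve growth factor receptor of neural crest cells, read 11.87 and 11.57 at day 38, against 9.65 and 10.70 at day 20. Of 15 neural crest and undifferentiated melanoma genes 3 were higher and 1 lower in both tumours, and their median difference was 1.08 against day 20 array 1 and −0.041 against array 2. Of 13 Schwann cell and nerve genes 2 were higher and 5 lower in both tumours, and the myelin protein gene Mag read 7.93 and 8.21 at day 38, against 8.72 and 8.57 at day 20.

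Of 17 fat cell genes 11 were higher and 1 lower in both day 38 tumours, with a median difference of 0.64, which was 0.24 against day 20 array 1 and 0.98 against array 2. The satiety hormone gene Lep read 13.04 and 13.81 in the SA day 38 tumours, against 11.23 and 10.02 in the SA day 20 tumours (2.80, SE 0.55, adjusted p = 0.187). Adipoq, the fat hormone adiponectin, read 13.99 and 14.31 at day 38, against 13.66 and 11.61 at day 20, with most of its gap to day 20 array 2. Lep averaged 8.90 ± 0.14 at day 60 (SD, n = 2). All 6 red blood cell genes measured had a higher mean at day 38 and 4 were higher in both tumours. The globin gene Hba-a1 read 15.59 and 15.31 at day 38, against 13.85 and 14.31 at day 20. Of 36 fibroblast and matrix genes 9 were higher and 5 lower in both tumours. Col4a1, a basement membrane collagen, read 15.73 and 15.36 at day 38, against 13.92 and 14.69 at day 20, and Col6a2 read 13.73 and 13.35, against 11.85 and 12.64. The part that adjoining fat, blood or stroma in the dissected pieces may have in the tumours' differences was not tested.

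**Figure D5:**
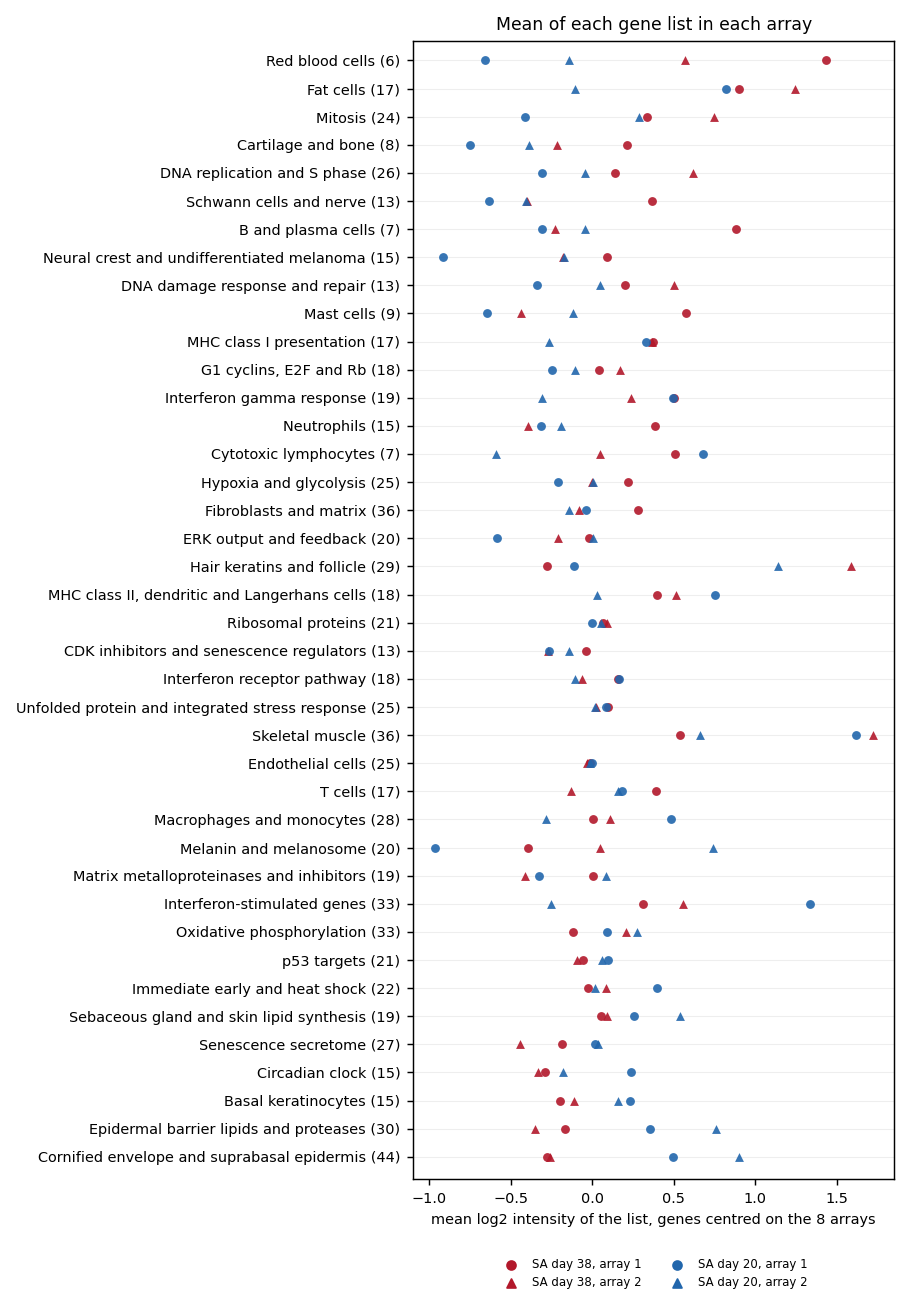
Mean log2 intensity of each gene list in each tumour (x axis), with every gene centred on its mean over the 8 arrays and the number of genes in brackets, in order of the difference between the days. SA day 38 is red and SA day 20 blue, with circles for array 1 and triangles for array 2; the days are apart in the bottom rows (cornified envelope and barrier lists) and for DNA replication, and mixed in many of the middle rows.

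Interferon genes gave no difference between the days that held against both day 20 tumours. Of 33 interferon-stimulated genes, 2 were higher and 0 lower in both day 38 tumours, and the median difference was −0.93 against day 20 array 1 and 0.61 against array 2. The same turn of sign was seen for interferon gamma response genes (−0.23 and 0.77), for cytotoxic lymphocyte genes (−0.46 and 1.13) and for macrophage genes (−0.44 and 0.24). Cxcl9, a T cell chemokine induced by interferon gamma, read 11.76 and 10.76 in the SA day 38 tumours, against 9.97 and 8.94 in the SA day 20 tumours. Ifitm1 read 8.60 and 7.75 at day 38, against 7.22 and 7.10 at day 20. These were exceptions among their lists, and neither passed the test (adjusted p = 0.359 and 0.326). A fainter probe for Ifitm1 past the filter differed by 0.076, with the days overlapping, where the one used differed by 1.02. Ifnar1 itself read near the background and below the filter, at 4.72 and 5.61 at day 38 and 5.08 and 4.87 at day 20, and Ifnar2, the other receptor chain, differed by 0.19 (adjusted p = 0.78).

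Pigment, hair and muscle genes turned with the day 20 tumour used as well. For 20 melanin and melanosome genes the median difference was 0.27 against day 20 array 1 and −0.85 against array 2, and 6 genes were lower and 1 higher in both day 38 tumours. Mreg, a melanosome transport gene, read 11.85 and 12.10 in the SA day 38 tumours, against 12.63 and 12.67 in the SA day 20 tumours. Mitf, the master factor of the lineage, read 7.60 and 7.92 at day 38, against 8.14 and 9.04 at day 20. Hair keratin and follicle genes differed by 0.79 and −0.37 against the 2 day 20 tumours, and 1 of 29 was higher and 1 lower in both. Skeletal muscle genes differed by −0.27 and 0.34. Myh4, the fast myosin IIb, read 12.09 and 13.28 at day 38, against 9.51 and 10.67 at day 20, whereas myoglobin (Mb), of oxidative fibres, read 11.66 and 13.88, against 15.36 and 15.12. Neither passed the test (adjusted p = 0.552 and 0.499).

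Of 33 genes of oxidative phosphorylation 10 were lower and 0 higher in both day 38 tumours, with a median difference of −0.13. Of 21 ribosomal protein genes 9 were higher and 1 lower, with a median of 0.05. Of 25 genes of the unfolded protein and stress response 7 were higher and 1 lower, among them the endoplasmic reticulum chaperones Pdia4 (13.10 and 12.98 at day 38, against 11.95 and 12.46 at day 20) and Creld2 (11.88 and 11.86, against 11.08 and 11.30). Endothelial genes had 4 higher and 6 lower of 25, and T cell genes 2 higher and 1 lower of 17. For sebaceous and skin lipid genes the counts were 4 higher and 8 lower of 19, with a median difference of −0.29. Elovl6, an elongase of fatty acids, read 13.04 and 12.64 at day 38, against 13.78 and 14.50 at day 20, and Elovl3, another elongase, read 7.80 and 8.22, against 8.94 and 11.42. Fads1, a desaturase of long fatty acids, went the other way, with 14.37 and 14.38 at day 38, against 13.44 and 13.66 at day 20. Of 8 cartilage and bone genes 3 were higher and 1 lower in both day 38 tumours, with a median of 0.54. Mast cell genes had 2 higher and 1 lower of 9 (0.53), and B and plasma cell genes 2 higher and 0 lower of 7 (0.48).

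SA tumours of day 60 were set against those of day 38 to follow the same genes onward. This comparison shares the day 38 tumours, and the change of sex pattern, with the one above. Limma called 127 measurements (1.09%), 83 higher (0.712%) and 44 lower (0.377%) at day 60, but 930 without either day 20 array and 1 or 2 without any single array of the other 3 groups. Nr1d1 was 2.55 higher at day 60 (adjusted p = 0.0343), at 11.15 and 10.54, against 8.19 and 8.40 at day 38. Ciart (1.08, adjusted p = 0.0468), Lce1l (1.56, adjusted p = 0.0447) and Clec4d (2.45, adjusted p = 0.0343) were higher as well. Of the 69 named genes at least 2-fold lower at day 38, 8 were called higher at day 60. A day 60 mean above both day 38 tumours was seen in 56 of the 69. Alox12b (0.09) and Klk5 (−0.33) were not called. Of the 25 at least 2-fold higher at day 38, 4 were called lower and 22 had a day 60 mean below both. These genes were picked for extreme values in the same day 38 tumours, which by itself favours day 60 values on the other side. The share over all measurements was not counted, so these counts are not read as a return at day 60. Cd1d1 was lower by −2.56 (adjusted p = 0.0175), at 9.66 and 9.61 at day 60, against 12.07 and 12.31 at day 38, and Lep by −4.53 (adjusted p = 0.042). These p-values come from the same fit as the 127 calls, and whether the shifts between the times differ was not tested.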

How the data were processed

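Whole melanomas were measured in 8 samples, 4 groups of 2, on mouse bead arrays. The deposited value table holds linear intensities for 25697 probes, with array medians of 409.3 to 410; the authors may have quantile normalised these intensities, since their distributions nearly coincide, but how they treated background is not given in the sources used here, and GenomeStudio 1.8 is named per the submitters' processing notes. Column names gave the samples. The 16 columns of a second table, 8 of signals and 8 of detection values, carry no label that ties them to samples and were not used. Background was removed from the deposited intensities by normexp in limma (offset 16) and put on the log2 scale; values near the background understate differences, and values near the highest intensity (71767) hide them. Probes with a mean over the 40th percentile (7.24) were kept, the brightest standing for its gene. Probe names came from the platform annotation (23978 probes with 1 symbol, 0 with several, 1719 with none), and chromosomes and start regions from RefSeq tables of GRCm38.p6.

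A model with a mean for each group was fitted over the 8 arrays (limma 3.58.1, R 4.3.3, 4 residual and 2.49 prior degrees of freedom), and p-values were adjusted by Benjamini-Hochberg over the 11661 measurements, with a threshold of 0.05. The fits against each day 20 array alone leave the other out, and the lone sample is assumed to vary like the other groups. The day 20 pair in fact lay further apart, with 9.82% of measurements over 2-fold apart. That share was 5.07% for SA day 38, 4.92% for SA day 60 and 1.37% for WT day 38. Those fits therefore leave out the widest spread. The fit over the 8 arrays was tested on simulated data in which each gene had the same spread in all groups. That test does not cover the wider spread of the day 20 pair, nor the fits with 1 day 20 array. Differences are day 38 minus day 20 unless stated otherwise. The members, the 41 gene lists and the rules were chosen with earlier results of these data known. Genes were named where they were called, had 1 of the 5 smallest p in a direction, were among the 15 with the widest gap between nearest arrays in a direction or among the 10 that most separated the day 20 arrays, led a list by that gap (up to 6 genes; where the groups overlapped for all, the 2 with the smallest p), or were sex-linked or receptor genes. The Hox genes and Plxnb3 were added after their values were seen, and melanocyte and keratinocyte genes as markers. Alternatives were other backgrounds, filters, probe rules, scalings, variance priors, the replicate number as a block and leaving out each array. The number of arrays limits the precision. An item of the mouse model is not reported here, nor were Braf and Ddx3y probes used here.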

Additional observations from a re-analysis of the deposited data

How the results depend on the processing

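Which genes passed between day 38 and day 20 depended on the processing. Against 2 calls, limma made 21 with the deposited log2 values, 10 with an offset of 50, 15 with a filter at the 60th percentile, 14 with a trend in the variance prior, 1 on the compared arrays alone and 0 without sex chromosome genes and unnamed probes. Leaving out each array gave 1 to 46, with 46 without SA day 20 array 1 and 39 without array 2. The replicate numbers do not pair the samples (correlation of same-numbered deviations −0.1093 for the 2 SA groups), and a replicate block gave 1 call, or 4 with the SA day 38 numbers crossed, which was tried after seeing the data. The 26 genes higher by at least 2-fold between nearest arrays became 14 in the deposited values, 118 at 1.5-fold and 7 at 3-fold, and 92 to 277 without single arrays; the 79 lower became 50, 234 and 22, and 146 to 302. For day 60 against day 38, the 127 calls became 365 in the deposited values, 3 with all probes, 332 with the stricter filter, 269 with every probe apart, 1 with the replicate block, 5 with it crossed, and 1 to 930 without single arrays. The cornified envelope median was −0.72 in the deposited values. The mitosis median ran from 0.22 to 1.01 without single arrays. Of the named genes, 4 values changed sign: Kdm5c without SA day 38 array 2 (0.096) or SA day 20 array 2 (0.20; range over single arrays left out −0.32 to 0.20), Ifnar2 without SA day 20 array 1 (−0.033; range −0.033 to 0.41) and Ccl5 without SA day 20 array 2 (−0.020; range −0.020 to 1.43). Another 4583 kept direction and side of the threshold, 55 came to pass and 8 no longer passed, all 8 of them the unnamed probe. List medians left with no gene under the stricter filter gave no value. The causes were not tested.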
